A study of Mus musculus with 9 samples.

Results

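The complement system genes described here are 9 of the 28379 genes in the deposited table. They are the chains of C1q (C1qa, C1qb and C1qc), the components C3, C4b and factor B (Cfb), the stabiliser properdin (Cfp), and the anaphylatoxin receptors C3ar1 and C5ar1. They were chosen by name, as complement components and receptors, and not by a cutoff on a measured value, though earlier results of these data were known. RNA was sequenced from primary bone marrow-derived macrophages (BMDMs) of C57BL/6 mice, which the study's methods give as C57BL/6J mice aged 10 weeks, with no sex stated for the marrow donors. All cultures received 20 ng/ml M-CSF, the growth factor that keeps macrophages alive, and were harvested at 48 h. The PBS group received nothing else that the labels name, the RANKL group received 100 ng/ml RANKL, the cytokine that turns these precursors into osteoclasts, and for RANKL + Vit D + K the same RANKL was joined by 1000 nM vitamin D (calcitriol) and 20 µM vitamin K (menaquinone-4) by the labels, whereas the study's methods give a different vitamin K dose. Each group had 3 libraries. The comparisons ask how RANKL changed these genes and how the vitamins changed them in the presence of RANKL, and there was no group with vitamins alone or with a single vitamin.

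Complement is a cascade of plasma proteins that marks microbes and dying cells for removal. C1q recognises antibody and cell debris and starts the classical pathway, which cleaves C4 and then C3, whereas factor B and properdin build and hold together the C3 convertase of the alternative pathway. The fragments C3a and C5a act on myeloid cells through C3ar1 and C5ar1. Most plasma complement comes from the liver, but macrophages are the main source of C1q and also make properdin and C3.

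The libraries held between 65915112 and 68229647 counts. The 8 macrophage markers summed to between 44800 and 53700 CPM (counts scaled to library size) in the PBS libraries, and none of the 8 was at 0 throughout a group. The RANKL libraries were at 24700 to 38800 and the RANKL + Vit D + K libraries at 8870 to 17800. Most of each sum was Lyz2, with means of 40510, 27670 and 9039 CPM in PBS, RANKL and RANKL + Vit D + K. Cd68 went the other way, with means of 727.5, 732 and 1061 CPM. By the test given below, 6 of the 8 were lower and 1 was higher with the vitamins than with RANKL. The 10 osteoclast markers summed to 116 to 133 CPM with PBS, 1190 to 2380 with RANKL and 257 to 407 with the vitamins. By the same test, 8 of them were lower and 1 was higher with the vitamins than with RANKL. Against PBS, 5 were higher and 1 was lower with the vitamins. Itgb3 went against the sum, with means of 19.52 CPM in RANKL and 82.46 with the vitamins. Atp6v0d2 stayed near its RANKL level, at 93.38 and 79.79 CPM. In these bulk samples, fewer cells of a type and less RNA per cell cannot be told apart. The second replicates stood apart most clearly by raw counts. The chi-square statistic per gene between libraries was 69.8 and 76.6 for pairs with PBS replicate 2 against 29.6 for the other PBS pair, 138 and 161 for pairs with RANKL replicate 2 against 25.1, and 453 and 293 for pairs with RANKL + Vit D + K replicate 2 against 51.3. On the log2 CPM scale, the root mean square distance to the mean of the other 2 libraries set them less apart. Replicate 2 was at 0.872 in PBS, against 0.8 and 0.847 for replicates 1 and 3. It was at 0.901 in RANKL, against 0.772 and 0.821, and at 1.24 with the vitamins, against 1.1 and 0.917. The fold changes of the 9 members and of the other complement genes described were also fitted without RANKL and RANKL + Vit D + K replicate 2, and without all 3 second replicates. The ratios, shares and profile distances were not recomputed without them. The labels do not say that replicates came from separate mice or cultures, and the study's methods speak of pooled RNA, so p-values measure the spread between these libraries, which may be technical.

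The vitamins went with lower levels of most of these genes, and RANKL alone with higher levels of 2 of them. In RANKL against PBS, C3 and Cfp were higher by the quasi-likelihood test of edgeR, adjusted by Benjamini-Hochberg over the 17002 genes tested (adjusted p below 0.05, which is what called, rose and fell mean from here on), 0 members were lower and 7 were not called. At an unadjusted p under 0.05, 1 member (C3ar1) was lower, as it was by DESeq2, with 0 by limma. In the same comparison 2.35% of all genes tested were called higher and 1.26% lower. In RANKL + Vit D + K against RANKL, 6 of the 9 members were lower, against 17.2% of all genes tested. None was higher by edgeR, DESeq2 or limma or at an unadjusted p under 0.05 (a count of 0 for each), against 16.4% of all genes by edgeR. In RANKL + Vit D + K against PBS, 5 were lower and 1, Cfp, was higher, against 21.0% and 19.8%. The members' median log2 fold change was 0.07, -1.58 and -1.85 in these comparisons, and that of all genes tested was -0.04 in each. All 9 members passed the filter on low counts. The comparisons share libraries with each other, so they are not independent.

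**Figure D1:**
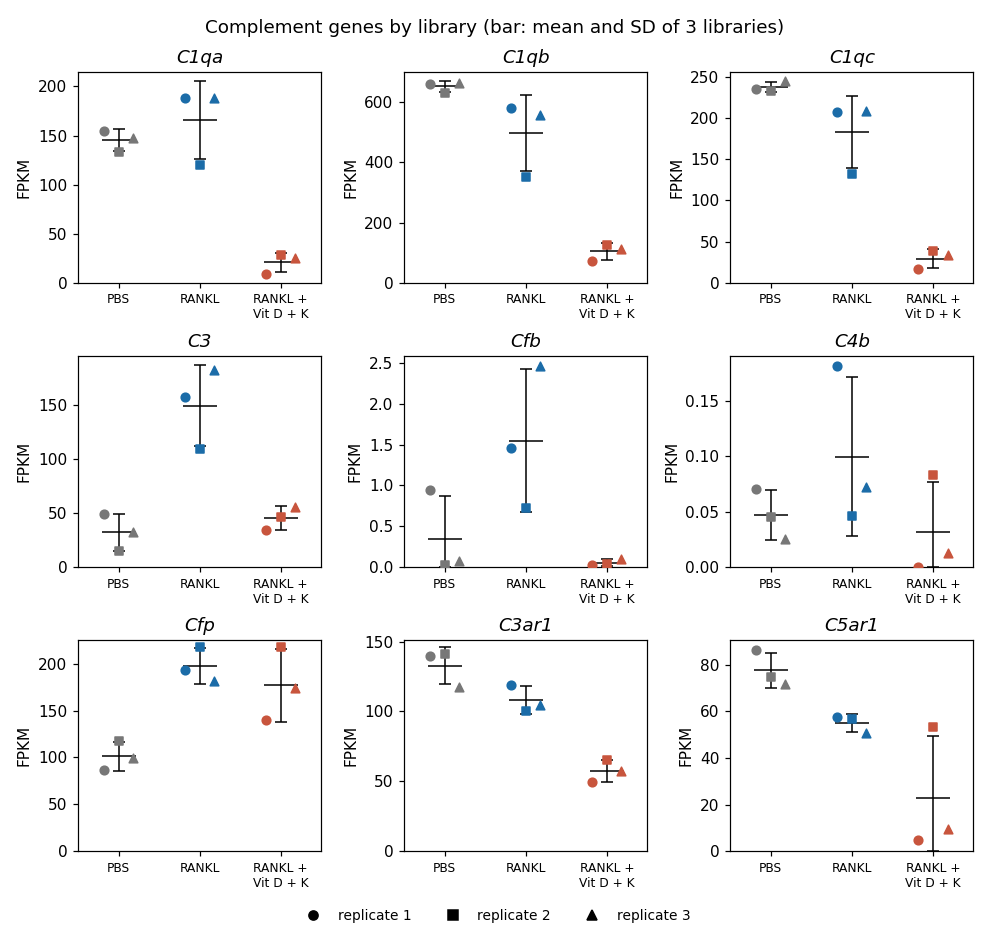
FPKM (fragments per kilobase of transcript, scaled to library size) of the 9 genes, 1 panel a gene with its own linear axis from 0. Points are libraries, the wide tick is the mean and the bar the SD of 3 libraries, cut at 0 where it would reach below; the C1q chains sit low only in RANKL + Vit D + K, C3 sits high only in RANKL, Cfp is up in both RANKL groups, and C5ar1 in RANKL + Vit D + K is split, with replicate 2 at 53.3 FPKM and the others at 4.98 and 9.78.

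The C1q genes carry the recognition part of the classical pathway and lie side by side on the minus strand of mouse chromosome 4, from 136880129 to 136898803 (coordinates of the deposited table, identical for all 9 members to GENCODE M21 on GRCm38). C1qb (ENSMUSG00000036905) lies at 136880129 to 136886187, C1qc (ENSMUSG00000036896) at 136889804 to 136893065 and C1qa (ENSMUSG00000036887) at 136895917 to 136898803. Because these neighbours moved together, the bases just upstream of 2 of them are shown, from the RefSeq promoter table (GRCm38.p6), which holds 6 of the 9 members and none for C1qa, Cfb and C4b. Both are written 5′ to 3′ on the gene's strand, C1qb from chr4:136886201-136886450 and C1qc from chr4:136893066-136893164, the latter being the 99 bases that lie outside the gene as the table lists it. Capitals mark the letters AGGAAG (or CTTCCT on the other strand), the core bound by ETS factors such as PU.1, a master regulator of macrophages.
C1qb: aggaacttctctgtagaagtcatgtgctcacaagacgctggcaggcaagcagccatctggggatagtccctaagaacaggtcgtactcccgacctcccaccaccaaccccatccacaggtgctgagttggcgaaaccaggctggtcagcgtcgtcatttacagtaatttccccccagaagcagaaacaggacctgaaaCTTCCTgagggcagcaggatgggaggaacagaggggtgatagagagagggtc
C1qc: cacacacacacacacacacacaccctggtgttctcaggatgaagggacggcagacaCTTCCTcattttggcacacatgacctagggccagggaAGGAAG
The core occurred once in the 250 bases upstream of C1qb and at 2 places upstream of C1qc, and 29.5% of the 32851 promoters of this length held it at least once. A pair of hexamers 3 bases apart, each either AGGTCA or the variants with letters GGTTCA or with letters AGTTCA or with letters GGGTCA, the direct repeat that the vitamin D receptor is known to bind, was in none of the 6 windows on either strand and in 0.0396% of all promoters. A match is a description of letters, not of binding, and the absence of a match in this window says nothing about sites elsewhere.

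C1qb was the most abundant of the set in PBS, at 661, 630.5 and 664 FPKM in replicates 1, 2 and 3, among the 42 highest genes of each PBS library. With RANKL it was at 579.9, 352.5 and 558 FPKM, and with RANKL + Vit D + K at 73.3, 127 and 112 FPKM. Every vitamin library was below every other library. C1qb was 4.39-fold lower in RANKL + Vit D + K than in RANKL (log2 fold change -2.13, SE 0.235, adjusted p = 7e-04 by edgeR) and 6.23-fold lower than in PBS (log2 fold change -2.64, SE 0.24, adjusted p = 0.000223). RANKL libraries were below the PBS libraries without overlap, but the difference was not called (log2 fold change -0.51, 95% interval -1.02 to 0.0047, adjusted p = 0.273).

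C1qc was at 235, 233 and 244.5 FPKM in PBS, at 207, 133 and 209 in RANKL and at 16.5, 38.1 and 33.2 in RANKL + Vit D + K. It was 5.77-fold lower in RANKL + Vit D + K than in RANKL (log2 fold change -2.53, SE 0.288, adjusted p = 0.000773) and 8.12-fold lower than with PBS (log2 fold change -3.02, SE 0.294, adjusted p = 0.000259). Again no vitamin library reached any other library. Against PBS, RANKL gave a log2 fold change of -0.49 (95% interval -1.11 to 0.12, adjusted p = 0.388).

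C1qa was at 155, 133 and 148 FPKM in PBS, at 188, 119.9 and 189 in RANKL and at 9.37, 27.9 and 25.04 in RANKL + Vit D + K. The RANKL libraries lay on both sides of the PBS libraries, with replicate 2 lowest, and the log2 fold change was 0.07 (95% interval -0.68 to 0.83, adjusted p = 0.939). With the vitamins C1qa was 7.39-fold lower than with RANKL (log2 fold change -2.89, SE 0.359, adjusted p = 0.00102) and 7.02-fold lower than with PBS (log2 fold change -2.81, SE 0.358, adjusted p = 0.000639). All 3 chains fell in both comparisons with the vitamins under each of the 21 alternatives run. Their log2 fold change against RANKL ranged from -3.32 to -2.55 for C1qa, from -2.48 to -1.96 for C1qb and from -2.93 to -2.27 for C1qc. Of the 8 macrophage markers, 6 were lower and 1 higher with the vitamins than with RANKL, and RANKL replicate 2 had both the lowest C1q of its group and the highest osteoclast marker sum (2380 CPM). The part of these in the result was not tested.

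**Figure D2:**
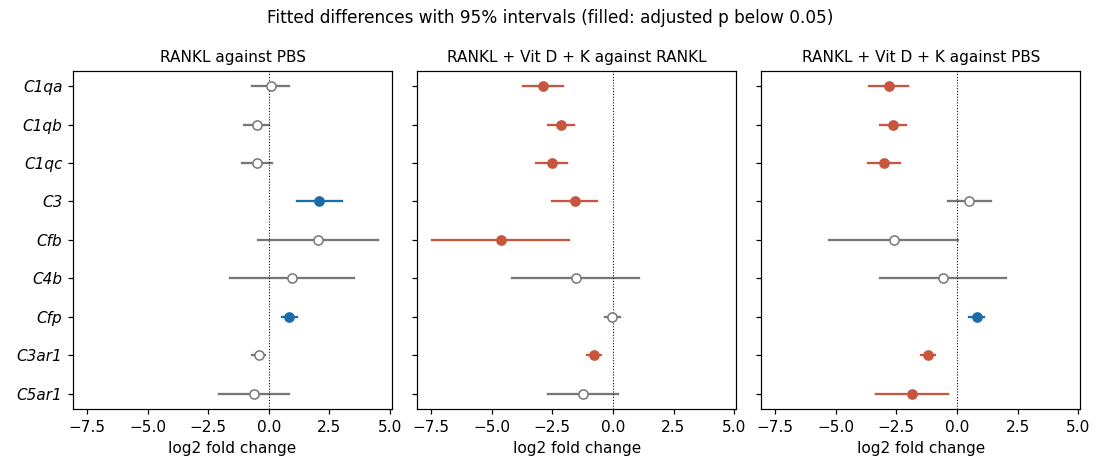
Log2 fold change (points) and 95% interval (lines) of the 9 genes in each comparison; filled points passed the test, red lower and blue higher. The C1q chains lie between -3.02 and -2.13 in both comparisons with the vitamins and within 0.51 of 0 in RANKL against PBS, whereas C3 and Cfp lie above 0 there.

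Some proportions between the chains differed between groups without overlap, but no ratio test fell below 0.05, which 3 against 3 libraries cannot reach. For every 100 C1qb counts there were 22.4, 20.2 and 21.3 C1qa counts in PBS and 31.0, 32.5 and 32.3 in RANKL. The RANKL + Vit D + K libraries had 12.2, 21.0 and 21.3. RANKL lay above both other groups, 1.503-fold above PBS, and the libraries did not overlap (p = 0.1 by a two-sided exact permutation, which is as low as 3 against 3 libraries can go, and 0.2 after Benjamini-Hochberg adjustment over 12 ratio tests). Per 100 C1qc counts there were 35.5, 30.8 and 32.5 C1qa counts in PBS, 48.95, 48.7 and 48.7 in RANKL, and 30.6, 39.5 and 40.6 with the vitamins. RANKL replicate 2, low in all chains, did not stand apart in this proportion. C1qb against C1qc was 158, 153 and 153 per 100 in PBS and 158, 149.8 and 151 in RANKL, which overlap, but 250.3, 187.5 and 190.5 with the vitamins, above all other libraries (exact permutation p = 0.1 against either group, 0.2 adjusted). Replicate 1 of the vitamin group was the lowest or highest library in each of these ratios.

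**Figure D3:**
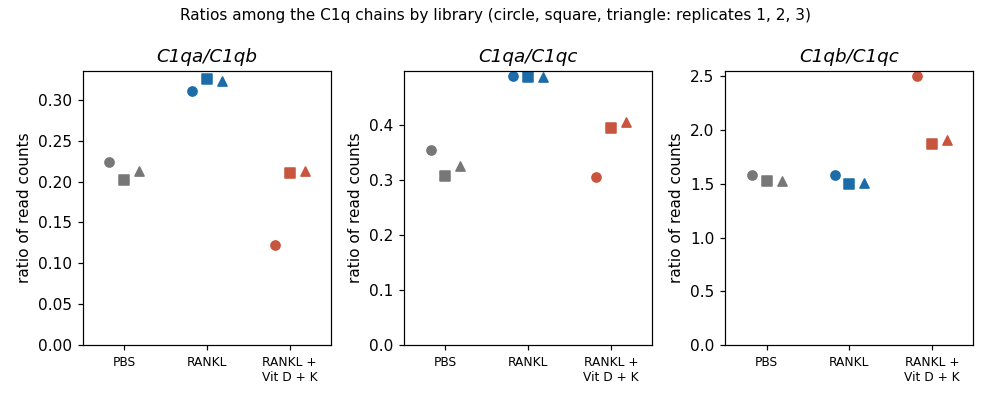
Ratio of read counts between C1q chains in each library, linear axes from 0; marker shapes are replicates. C1qa/C1qb is 0.310 to 0.325 in RANKL against 0.202 to 0.224 in PBS, and C1qb/C1qc is 1.88 or more in RANKL + Vit D + K against 1.58 or less in the other groups.

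Levels between genes depend on the length used. Counts and FPKM together imply lengths of 1157 to 1185 bases for C1qa and 1211 to 1240 for C1qb, near the longest GENCODE M21 transcripts of 1040 and 1088 bases, but 2149 to 2200 for C1qc, whose longest transcript has 1203. Per kilobase of the longest transcript, C1qc was at 438 ± 19.8 CPM (SD, n = 3) in PBS, still between C1qb at 749.9 ± 36.3 and C1qa at 167 ± 15.5. In RANKL the order did depend on it: by FPKM Cfp (197 ± 19.0) stood above C1qc (183 ± 43.4) with overlapping libraries, and per kilobase C1qc (312 ± 85.9 CPM) stood above Cfp (220.4 ± 10.9 CPM).

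C3 is the protein on which all complement pathways converge. Its gene (ENSMUSG00000024164) lies on chromosome 17 from 57203970 to 57228136, minus strand. It was at 49.4, 15.1 and 32.8 FPKM in PBS, at 158, 109 and 182 in RANKL and at 34.1, 46.7 and 56.1 in RANKL + Vit D + K. RANKL libraries were above all others, and PBS and vitamin libraries overlapped. C3 rose 4.25-fold with RANKL against PBS (log2 fold change 2.09, SE 0.411, adjusted p = 0.0283) and was 2.99-fold lower with the vitamins than with RANKL (log2 fold change -1.58, SE 0.405, adjusted p = 0.0167). Against PBS the vitamin group gave a log2 fold change of 0.50 (95% interval -0.39 to 1.40, adjusted p = 0.338). The rise was not called without PBS replicate 3 (2.15, adjusted p = 0.111), RANKL replicate 1 (2.04, 0.0873), RANKL replicate 2 (2.30, 0.0533) or RANKL replicate 3 (1.89, 0.0824). The fall was not called without RANKL replicate 1 (-1.53, 0.0531), RANKL replicate 3 (-1.39, 0.0596) or RANKL + Vit D + K replicate 1 (-1.44, 0.0574). An annotated microRNA, Mir6978, lies within C3 on the same strand.

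The bases upstream of C3 are shown because C3 was called higher with RANKL and lower again with the vitamins. They run 5′ to 3′ on the gene's strand from chr17:57228137-57228386 (RefSeq promoter table, GRCm38.p6), and the capitals mark a match to TTGCNNAA, letters bound by C/EBP factors, which drive acute-phase and myeloid genes.
C3: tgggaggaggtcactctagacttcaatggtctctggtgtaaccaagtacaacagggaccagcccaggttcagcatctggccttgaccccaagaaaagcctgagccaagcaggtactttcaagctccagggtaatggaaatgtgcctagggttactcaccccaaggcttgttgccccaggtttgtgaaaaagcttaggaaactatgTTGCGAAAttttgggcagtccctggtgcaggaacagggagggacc
This pattern was found in 9.56% of promoters of this length on either strand, and in none of the other 5 members with an entry. The AP-1 pattern TGANTCA was in C3ar1 alone among the 6 (6.75% of all promoters), the part ISRE pattern GAAANNGAA in C5ar1 alone (7.13%), the TATA box TATAAA in C3ar1 alone (12.4%) and the part NF-kB pattern GGGANTTTC in none (0.941%). Only 48 bases of the C5ar1 window lie outside the gene as the deposited table lists it, and its ISRE match and 3 ETS matches, 2 of which overlap each other and the ISRE match, all lie within the listed gene. No ETS core was found for C3, C3ar1 or Cfp.

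Cfp encodes properdin, which stabilises the alternative pathway convertase and is made by myeloid cells. The gene (ENSMUSG00000001128) lies on chromosome X from 20925454 to 20931555, minus strand. It was at 86.5, 117 and 99.7 FPKM in PBS, at 193, 218 and 181 in RANKL and at 139.5, 217 and 174.5 in RANKL + Vit D + K. Every library with RANKL, with or without the vitamins, was above every PBS library. Cfp rose 1.79-fold with RANKL (log2 fold change 0.84, SE 0.139, adjusted p = 0.0158) and was 1.77-fold above PBS with RANKL and the vitamins (log2 fold change 0.82, SE 0.139, adjusted p = 0.00214). Between the groups with RANKL the log2 fold change was -0.02 (95% interval -0.33 to 0.29, adjusted p = 0.929). The rise with RANKL alone was not called without PBS replicate 1 (0.80, adjusted p = 0.0711), PBS replicate 3 (0.90, 0.0741), RANKL replicate 1 (0.84, 0.0607) or RANKL replicate 2 (0.80, 0.059). Properdin is also made by neutrophils. The 9 neutrophil markers summed to 10.5 to 127 CPM in PBS, 10.8 to 134 CPM in RANKL and 0.515 to 1.35 CPM with the vitamins, where 6 of them, Ly6g, Elane, Mpo, Ltf, Camp and Retnlg, were at 0 in every library. The part of such cells in the Cfp levels of PBS and RANKL was not tested.

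Cfb, the alternative pathway's protease, was scarce. The gene (ENSMUSG00000090231) lies on chromosome 17 from 34856374 to 34862518, minus strand, and had 199, 6 and 17 counts in PBS, 310, 153 and 542 in RANKL, and 6, 8 and 22 in RANKL + Vit D + K. PBS replicate 1 reached the RANKL range, and every vitamin library was below every RANKL library. Cfb was 24.9-fold lower with the vitamins than with RANKL (log2 fold change -4.64, 95% interval -7.48 to -1.79, adjusted p = 0.0212). RANKL against PBS gave 2.02 (-0.45 to 4.49, adjusted p = 0.375), or 4.76 (adjusted p = 0.0615) without PBS replicate 1, and vitamins against PBS -2.62 (-5.30 to 0.06, adjusted p = 0.107). The fall was not called without RANKL replicate 1 (-4.67, adjusted p = 0.0517), RANKL replicate 3 (-4.10, 0.0625) or RANKL + Vit D + K replicate 1 (-4.34, 0.0712). Its size moved with the setting while the call held, to -5.44 without RANKL + Vit D + K replicate 3, -3.31 by limma on log2(FPKM + 0.1) and -1.22 by limma on log2(FPKM + 1). Without PBS replicate 1 the log2 fold change of the vitamins against PBS was 0.12, and without PBS replicate 2 it was -3.12 (adjusted p = 0.0473). An annotated gene on the same strand, Gm20547, overlaps Cfb and had between 0 and 149 counts, so the split of reads between them is uncertain.

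C4b, a source of the classical pathway's C4, was close to the floor of detection. Its gene (ENSMUSG00000073418) lies on chromosome 17 from 34728380 to 34743882, minus strand, and it has a close paralog, C4a, so its counts are uncertain. They were 30, 20 and 11 in PBS, 78, 20 and 32 in RANKL and 0, 38 and 6 in RANKL + Vit D + K. The groups overlapped and no comparison was called, with log2 fold changes of 0.96 (95% interval -1.60 to 3.52), -1.54 (-4.15 to 1.07) and -0.58 (-3.18 to 2.02). Without RANKL + Vit D + K replicate 2, which alone had 38 counts, the fall against RANKL was called (-3.60, adjusted p = 0.0413), as it was without both second replicates that stand apart (-4.00, adjusted p = 0.0312). Leaving out RANKL replicate 1, the highest library, gave -0.77 (adjusted p = 0.722), and leaving out RANKL + Vit D + K replicate 1 gave -0.95 (adjusted p = 0.496).

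C3ar1, the receptor for C3a, moved by a smaller factor but with little spread. The gene (ENSMUSG00000040552, chromosome 6 from 122847138 to 122856161, minus strand) was at 139.8, 141 and 118 FPKM in PBS, at 119, 100.1 and 105 in RANKL and at 49.3, 65.6 and 57.7 in RANKL + Vit D + K. The vitamin libraries were below all others. C3ar1 was 1.71-fold lower with the vitamins than with RANKL (log2 fold change -0.77, SE 0.125, adjusted p = 0.00274) and 2.28-fold lower than with PBS (log2 fold change -1.19, SE 0.125, adjusted p = 0.000341), and both calls held under each of the 21 alternatives run. For RANKL against PBS the log2 fold change was -0.42 (95% interval -0.70 to -0.14, adjusted p = 0.106). It passed in DESeq2 (adjusted p = 0.0442) and without RANKL + Vit D + K replicate 2 (0.0494), a library outside this comparison that enters the shared estimate of spread.

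C5ar1, the receptor for C5a, showed a split within the vitamin group. The gene (ENSMUSG00000049130, chromosome 7 from 16246743 to 16259540, minus strand) was at 86.2, 74.6 and 72.0 FPKM in PBS and at 57.8, 56.6 and 50.7 in RANKL. In RANKL + Vit D + K, replicates 1 and 3 were at 4.98 and 9.78, and replicate 2 was at 53.3, inside the RANKL range. With all libraries C5ar1 was called lower against PBS (log2 fold change -1.85, SE 0.655, adjusted p = 0.0487) and not against RANKL (-1.22, 95% interval -2.68 to 0.23, adjusted p = 0.173). Without replicate 2 of the vitamin group the log2 fold change was -3.31 against PBS (adjusted p = 2.5e-05) and -2.69 against RANKL (adjusted p = 5.51e-05). Against RANKL it was -0.75 without replicate 1 of the vitamin group (adjusted p = 0.325) and -0.87 without replicate 3 (adjusted p = 0.404). By limma on log2(FPKM + 0.1) the log2 fold change against PBS was -2.48. The call against PBS was lost in 11 of 20 alternatives. Among them was leaving out any other single library, PBS replicates 1 to 3, RANKL replicates 1 to 3 and vitamin replicates 1 and 3, which gave log2 fold changes from -1.84 to -1.32 and adjusted p-values from 0.07 to 0.159. RANKL libraries were below PBS libraries without overlap (log2 fold change -0.62, adjusted p = 0.672), and the difference was called when these groups were fitted alone (-0.57, adjusted p = 0.0129). C5ar1 is also a neutrophil receptor. The neutrophil markers summed to 64.6, 127 and 10.5 CPM in PBS replicates 1, 2 and 3, where C5ar1 was at 256, 216 and 216 CPM, and to 1.35 CPM or less with the vitamins. Their part in the C5ar1 result was not tested.

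As a share of the summed FPKM of the 9 genes, the C1q chains made up 74.3%, 74.1% and 76.6% in PBS, 64.8%, 55.5% and 64.7% in RANKL, and 30.3%, 33.5% and 36.4% in RANKL + Vit D + K. Properdin went the other way, from 6.12% to 8.71% in PBS to 12.3% to 20.0% in RANKL and 37.2% to 42.7% with the vitamins, where it was the most abundant of the set. The summed FPKM was 1344 to 1413 in PBS, 1090 to 1504 in RANKL and 327 to 576 with the vitamins. In PBS the order by mean FPKM was C1qb, C1qc, C1qa, C3ar1, Cfp, C5ar1, C3, Cfb and C4b, and neighbours overlapped only for C1qa with C3ar1 and for Cfb with C4b. In RANKL + Vit D + K it was Cfp, C1qb, C3ar1, C3, C1qc, C5ar1, C1qa, Cfb and C4b, and from C3ar1 to C1qa each neighbour overlapped the next. Per kilobase of the longest transcript, C1qc (mean 54.02 CPM) and C3 (mean 53.25 CPM) changed places in that group, a difference smaller than the SD of either.

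**Figure D4:**
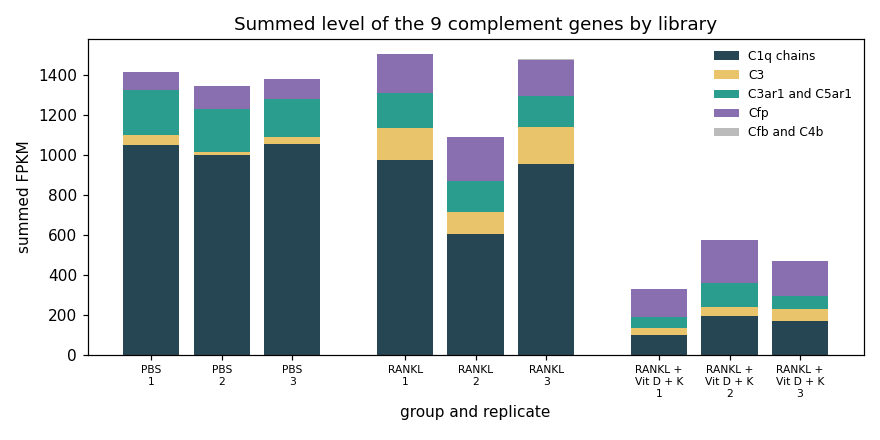
Summed FPKM of the 9 genes in each library, linear axis from 0, stacked by gene group; Cfb and C4b together are at most 2.54 FPKM and too thin to see. The C1q block shrinks from 996 to 1056 FPKM in PBS to 99.2 to 193 in RANKL + Vit D + K, whereas the properdin block there is at 139.5 to 217.

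Profiles were compared by the root mean square difference between log2 CPM values over the 9 libraries, after each gene's own mean was removed. Among the chains this difference was 0.234 for C1qb with C1qc, 0.267 for C1qa with C1qc and 0.419 for C1qa with C1qb. The nearest other genes, of those with a mean FPKM of at least 1, were Oas1b (0.167), Xaf1 (0.184) and Cracr2b (0.256) for C1qa, Vsir (0.152), Ly86 (0.165) and Mertk (0.167) for C1qb, and Nuak1 (0.158), Abca9 (0.18) and Pot1b (0.185) for C1qc. Oas1b and Xaf1 are known as interferon-responsive genes, and Mertk, a receptor for dying cells, is also on the macrophage marker list. Nothing came as near to C3, for which the nearest was Ceacam19 at 0.426, whereas Ndufaf5 was within 0.103 of Cfp.

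Of the 48 other complement genes listed, 37 were in the table and 25 were tested. In RANKL against PBS, 6 were higher and 0 lower by edgeR's test (2 were lower at an unadjusted p under 0.05, 1 by DESeq2 and 0 by limma), against 2.35% and 1.26% of all genes tested. In RANKL + Vit D + K against RANKL, 2 were higher and 9 lower, against 16.4% and 17.2% of all genes. Against PBS 4 were higher and 7 lower, against 19.8% and 21.0% of all genes. Their median log2 fold changes were 0.45, -1.10 and -0.34, against -0.04 for all genes tested in each comparison. In total 15 genes were called in at least 1 comparison, and 10 of these had a mean FPKM of at least 1 in a group. The other 5, C1s1, C1s2, Vsig4, Cd55 and Cd46, stayed below that level and are named after their values were seen.

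Among the enzymes and recognition proteins, Fcna (ficolin A, a lectin pathway recognition protein of macrophages) followed the same course as C3. It was at 4.34 to 5.47 FPKM in PBS, 13.8 to 15.4 in RANKL and 4.90 to 7.94 with the vitamins, and it rose 2.79-fold with RANKL (log2 fold change 1.48, SE 0.168, adjusted p = 0.00334) and was 2.18-fold lower with the vitamins (log2 fold change -1.13, SE 0.167, adjusted p = 0.00191). C1ra and C1rl, the gene of a C1 protease and a relative of it, fell against RANKL by 0.97 and 1.98 on the log2 scale (adjusted p = 0.0107 and 0.00386). Of the 8 genes listed for the terminal pathway and factor D, 4 were in the table and 1, C8g, was tested, which fell against RANKL by 1.25 on the log2 scale (adjusted p = 0.0135). That call was lost without RANKL replicate 1 (adjusted p = 0.058) or 3 (0.0503) or RANKL + Vit D + K replicate 3 (0.0518).

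The receptors moved in both directions. C5ar2, the second C5a receptor and the neighbour of C5ar1, 2588 bases away, was at 2.89 to 3.42 FPKM in PBS and 2.09 to 2.45 in RANKL. With the vitamins it was at 0.0644, 0.919 and 0.122, with replicate 2 highest as for C5ar1, and it fell against RANKL by 2.53 on the log2 scale (SE 0.731, adjusted p = 0.0267). The log2 fold change was -4.31 without that replicate (adjusted p = 1.01e-05), and the call was lost with only these groups or with any single RANKL library left out, or RANKL + Vit D + K replicate 3 (adjusted p = 0.0541 to 0.0887). Itgax, the CD11c chain of complement receptor 4, rose at both steps, from 0.438 to 0.755 FPKM in PBS to 1.66 to 1.82 in RANKL and 6.53 to 7.93 with the vitamins (vitamins against RANKL 4.73-fold, log2 fold change 2.24, SE 0.219, adjusted p = 0.000422). Its rise with RANKL alone was not called without PBS replicate 3 (adjusted p = 0.0523) or RANKL replicate 1 (0.0565). Cd93, once described as a C1q receptor, was at 70.9 to 79.1 FPKM in RANKL and 109 to 139 with the vitamins, a 1.84-fold rise (log2 fold change 0.88, SE 0.169, adjusted p = 0.00551). In PBS it was at 93.5 to 127 FPKM, overlapping the vitamin libraries. With all libraries neither RANKL nor the vitamins was called against PBS for Cd93, but 4 and 3 of the 21 alternatives called them.

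Of the regulators, Cd59a, an inhibitor of the membrane attack complex, rose 2.11-fold with RANKL (log2 fold change 1.08, SE 0.202, adjusted p = 0.0241) and was 1.67-fold lower with the vitamins than with RANKL (log2 fold change -0.74, SE 0.201, adjusted p = 0.0212). The rise was not called with any single PBS or RANKL library left out (adjusted p = 0.0664 to 0.105), nor the fall with any single RANKL library or RANKL + Vit D + K replicate 1 or 3 left out (adjusted p = 0.0505 to 0.0729). Cr1l, a membrane regulator of C3 and C4, was called against PBS, 1.36-fold higher with the vitamins (log2 fold change 0.44, SE 0.127, adjusted p = 0.0221). With all libraries Cr1l was not called against RANKL, but 4 of the 21 alternatives called it higher. These were the replicate block and the fits without RANKL + Vit D + K replicate 2, without both libraries that stand apart or without all second replicates.

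**Figure D5:**
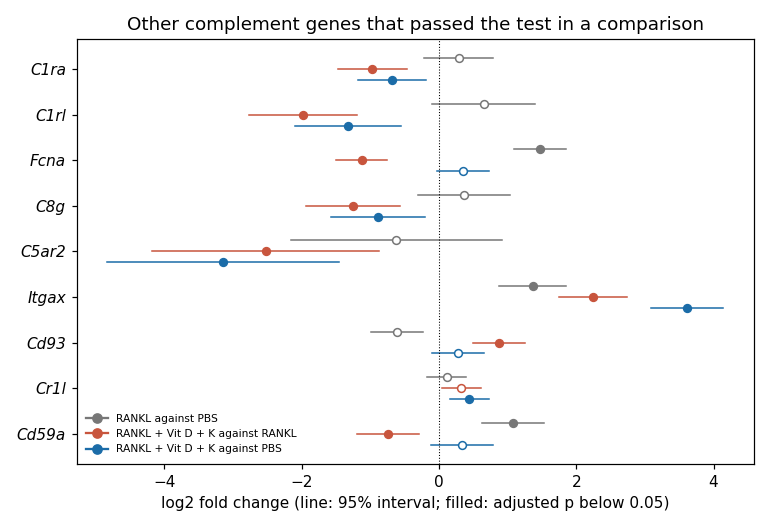
Log2 fold change (points) and 95% interval (lines) of 9 other complement genes that passed the test and had a mean FPKM of at least 1 in a group, coloured by comparison; filled points passed the test. Itgax lies above 0 in every comparison and reaches 3.61 against PBS, and C5ar2 lies lowest of those plotted in RANKL + Vit D + K against PBS.

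The neutrophil markers are given above. The B cell, T cell, dendritic cell, stromal and fibroblast, mast cell and basophil, and erythroid lists summed to at most 5.28 CPM in any library. The stromal and fibroblast list was at 1.6 to 5.28 CPM in PBS, 2.68 to 3.04 in RANKL and 0.268 to 0.435 with the vitamins, where 2 of its 5 tested genes (Col1a1 and Pdgfrb) were lower than with RANKL. The B cell list was at 0.66 to 0.897, 0.688 to 1.15 and 0 to 0.124 CPM, and its 1 tested gene, Cd79b, was lower. The T cell list went the other way, at 0.0598 to 0.47, 0.239 to 0.602 and 0.837 to 1.36 CPM. Its 1 tested gene, Lck, was higher with the vitamins than with PBS and was not called against RANKL. The dendritic cell list was at 0.125 to 0.865 CPM in PBS, 2.74 to 3.16 in RANKL and 0.129 to 0.593 with the vitamins, where 1 of its 4 tested genes (Flt3) was lower than with RANKL. The endothelial list, whose genes some macrophages also express, summed to 3.95 to 5.6 CPM in PBS, 5.25 to 8.73 in RANKL and 12.1 to 35.5 with the vitamins, where 1 of its 4 genes (Kdr) was higher than in either other group. The part of any of these cells in the members' results was not tested.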

How the data were processed

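The authors deposited 1 table with whole-number read counts per gene, not normalized, and FPKM values, normalized by the authors to transcript length and library size. RNA was selected with oligo(dT), and the submitters' processing notes name cutadapt 1.9, HISAT2 2.0.4, StringTie 1.3.4d and edgeR, in no stated role. They also name the build hg38, but 25596 of 28294 gene IDs found in GENCODE M21 (GRCm38) had identical mouse coordinates. Strand use in counting is not given in the sources used here.

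Counts were tested in R 4.3.3 with edgeR 4.0.16: filterByExpr, TMM, and quasi-likelihood tests with the 9 libraries fitted together, adjusted by Benjamini-Hochberg at 0.05 over 17002 genes. A standard error is the log2 fold change divided by the square root of F. CPM use TMM library sizes. Ratios were compared by exact two-sided permutation. The 21 alternatives included DESeq2 1.42.0, limma 3.58.1 on log2(FPKM + 0.1) or + 1, other filters and scalings, a replicate block and each library left out; leaving out the 2 libraries that stand apart most, or all 3 second replicates, was chosen after seeing the data. The scripts were tested on simulated data.

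The members, the lists of other complement genes and the marker lists (macrophage, osteoclast, neutrophil, B cell, T cell, dendritic cell, stromal and fibroblast, endothelial, mast cell and basophil, erythroid) were chosen with earlier results of these data known. Named were all members, other complement genes called in at least 1 comparison whose mean FPKM reached 1 in a group, and the 3 nearest profiles for the C1q chains and the nearest for C3 and Cfp. A depth of 65915112 to 68229647 counts puts 3 counts at 0.0402 to 0.0503 CPM. The value 4 occurred 2.22 times as often as 3 and 5 did on average, so single counts may not be independent fragments. Same-numbered RANKL and PBS libraries had correlations of their deviations across genes of 0.101, 0.19 and 0.139, against -0.13 to 0.00351 for different numbers. Whether these numbers pair the libraries was not tested, and the labels do not say. The main test and the permutations took no pairing into account. Of the other complement genes that met this naming rule, 1 is not reported here.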

Additional observations from a re-analysis of the deposited data

How the results depend on the processing

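Of the 552 refits of a member's log2 fold change, 508 kept their direction and side of the threshold, 25 lost a call, 13 gained one and 6 changed sign. The calls of C1qa, C1qb, C1qc and C3ar1 with the vitamins, and of Cfp with the vitamins against PBS, held in each alternative run. The sign changes were all of differences not called: C1qa in RANKL against PBS without RANKL replicate 1 (-0.037) or 3 (-0.052, range with 1 library left out -0.052 to 0.29), Cfp in the vitamins against RANKL without RANKL + Vit D + K replicate 1 (0.085) or RANKL replicate 2 (0.019, range -0.11 to 0.085), C4b in the vitamins against PBS without RANKL + Vit D + K replicate 1 (0.054, range -2.64 to 0.054), and Cfb in the same comparison without PBS replicate 1 (0.12, range -3.38 to 0.12). C5ar1 against RANKL was also called by limma on log2(FPKM + 0.1) (-1.99, adjusted p = 0.0482) and log2(FPKM + 1) (-1.88, adjusted p = 0.048) and without both libraries that stand apart (-2.74). Cfb against PBS was called by DESeq2 (-2.62, adjusted p = 0.0288), and C4b against RANKL without both libraries (-4.00). Without all second replicates, C5ar1 (-2.71) and C4b (-3.96) were likewise called against RANKL, and no member's call was lost. DESeq2 gave no adjusted p for C5ar1, and C4b did not pass the filters of 4 alternatives. The replicate block changed no call of a member. With it C3 was at 2.15 and Cfp at 0.85 in RANKL against PBS, and that comparison called 538 genes higher and 287 lower. Same-numbered libraries of the vitamin group gave correlations of -0.0276 to 0.097 with those of the other groups, and whether they are paired was not tested.

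Counts over all genes moved more, and the cause was not tested. In RANKL against PBS, 400 higher and 214 lower became 1056 and 643 by DESeq2, 1034 and 702 with only these groups, 843 and 539 without both libraries that stand apart, 987 and 753 without all second replicates, and 122 lower without a filter, by edgeR and by limma. With 1 library left out in turn they ranged from 96 to 972 higher and 30 to 931 lower, moving over 1.5 times for each PBS and RANKL library and for RANKL + Vit D + K replicate 2 (and 3 for lower), and the members' counts from 0 to 2 higher and 0 to 1 lower. Members lower were 1 by DESeq2 and 1 with only these groups. In the vitamins against RANKL, 2929 lower became 4783 without both libraries, 4719 without all second replicates (with 4233 higher) and 1912 with only these groups, and with 1 library left out 1578 to 3773 were higher and 1621 to 4486 lower, moving so for RANKL replicates 1 and 3 and each vitamin library. In the vitamins against PBS, the 3564 lower ranged, with 1 library left out, from 2297 (without PBS replicate 1) to 4725, with 2350 without RANKL + Vit D + K replicate 3, and were 4930 without both libraries that stand apart. For the other complement genes described, 509 of 564 refits kept their side, 43 lost a call, 12 gained one and none changed sign. Their counts over the list with 1 library left out ranged from 1 to 6 higher (3 or fewer without any 1 PBS library or RANKL replicate 1 or 2) and 0 to 1 lower in RANKL against PBS, 5 (without RANKL + Vit D + K replicate 3) to 12 lower in the vitamins against RANKL and 3 to 7 lower in the vitamins against PBS (4 or fewer without PBS replicate 1 or 3 or RANKL + Vit D + K replicate 3). The 4 higher in the vitamins against PBS were 2 by limma on log2(FPKM + 0.1), 2 by limma on log2(FPKM + 1) and 2 with only these groups, and those lower with RANKL were 1 by DESeq2, 2 with only these groups and 1 without all second replicates. Depth limits Cfb and C4b, with at most 542 and 78 counts, and a floor of 3 counts reflects counting error alone.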
